A study of Mus musculus with 32 samples.

Results

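Mouse embryonic fibroblasts of the wild-type line wtATMIN were given 1 µM aphidicolin (APH) for 24 h and were set against the same line given its solvent, DMSO, for 24 h. These 4 samples, 2 per treatment, were picked by the labels of line, treatment and time, and are 4 of the 32 samples of the study. The study sequenced RNA of 4 fibroblast lines: wtATMIN, a line deleted for ATMIN, a second wild-type line named wtATM, and a line deleted for ATM. Each line received 1 µM APH or DMSO for 4 h or 24 h, in duplicate, which gives 16 groups. To see where the 24 h response of wtATMIN differed, it was also set against the response of wtATMIN at 4 h, of wtATM at 24 h and of the ATMIN knock-out line at 24 h, each measured against its own DMSO samples. All cells were kept in serum-containing DMEM. Each knock-out is 1 line, so an effect of its deletion cannot be told apart from another difference between lines. As wtATMIN and wtATM are both wild type, a difference between them is one between lines. Nothing in the labels says that the 2 samples of a group were separate cultures, so every p-value here measures only the spread between these samples, which may be technical.

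Aphidicolin blocks the replicative DNA polymerases, so that forks slow and single-stranded DNA is exposed. The kinase ATR answers stalled forks and the kinase ATM answers broken DNA. Both act on p53, a transcription factor that switches on genes of cell cycle arrest, cell death and repair, and also the gene of its own inhibitor, Mdm2. ATMIN, a zinc finger protein, interacts with ATM. Long genes take long to transcribe, and their transcription can meet the replication fork, for which low doses of aphidicolin are widely used to bring out fragile sites. DNA that escapes into the cytosol can start an interferon response, which is read out by interferon-stimulated genes.

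The 2 APH libraries held 16268286 and 14721328 counted reads, and the 2 DMSO libraries held 21020662 and 15065757. Replicates had a Pearson correlation of 0.997 between the APH libraries and 0.996 between the DMSO libraries on the log2 scale, over genes. Of 12 fibroblast markers, 9 were above 1 CPM (counts scaled to a fixed library size) in all 4 libraries, among them Vim, Pdgfra, Prrx1 and Twist1, while Tcf21 had no read. The summed level of the fibroblast markers was 1607 and 1594 CPM with APH, against 2512 and 2372 CPM with DMSO, and 7 of the 11 tested markers were called lower. Blood markers summed to 18.6 and 16.8 CPM with APH, against 13.9 and 12.6 CPM with DMSO, with Csf1r and Lyz2 called higher and Adgre1, Cd3e and Tyrobp at 0. Lyz2 was near the limit of counting, at 0.321 and 0.236 CPM with APH, against 0.0439 and 0 CPM with DMSO. Of 3 endothelial markers tested, 1 was called higher. The summed endothelial markers were at most 1.48 CPM and those of skeletal muscle at most 0.650 CPM, with Myod1, Myog, Actc1 and Ckm at 0. Epithelial markers summed to 10.2 and 9.69 CPM with APH, against 11.2 and 11.2 CPM with DMSO, with Krt19 the highest of them, and neural markers to 60.1 and 57.8 CPM, against 60.6 and 64.6 CPM. The part of these other markers in the results was not tested. One transcript that overlaps ribosomal RNA, Gm42418, stood at 652 and 345 CPM with APH, against 2049 and 301 CPM with DMSO, so the first DMSO library is apart from the others in it.

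After 24 h of APH, wtATMIN fibroblasts had more RNA of p53 target genes, of interferon-stimulated and chemokine genes and of mitotic genes, and less RNA of collagens and of very long genes. Of 18484 genes tested, 2505 were called higher with APH (13.6%) and 2826 lower (15.3%), which is 28.8% in all, at an adjusted p under 0.05 by edgeR's quasi-likelihood test, adjusted after Benjamini and Hochberg. Every adjusted p below is from this test unless DESeq2 is named, and every ± on a log2 fold change is its standard error. A change of at least 2-fold was seen among 487 of the genes called higher (2.63% of those tested) and 221 of those called lower (1.2%). Scaled by library size alone, the split turned to 3438 higher and 1900 lower (64.4% higher, against 47.0% with the main scaling) and the median of all genes shifted by 0.08 on the log2 scale. Leaving out 1 library at a time, 1545 and 1600 genes were called higher without an APH library, and 1506 and 1654 without a DMSO library. In bulk RNA, fewer cells of a kind and less of an RNA per cell cannot be told apart.

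The authors' deposited table of the same comparison, made with DESeq2, called 5059 genes, of which 4488 were also called here, all in the same direction. These are 88.7% of the authors' calls and 84.2% of the calls made here. Its fold changes are shrunken, so for Atf3 the authors' deposited table gives a log2 fold change of 2.32.

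The genes with the largest rise, among those averaging at least 5 CPM, included regulators of stress, autophagy and inflammation. Atg9b, a membrane protein of autophagy, stood at 15.5 and 19.97 CPM with APH, against 1.49 and 1.95 CPM with DMSO (log2 fold change 3.39 ± 0.21, adjusted p = 3.3e-14). Trp53inp1, a p53-induced nuclear protein, had 74.9 and 76.7 CPM with APH, against 8.83 and 9.91 CPM with DMSO (log2 fold change 3.02 ± 0.11, adjusted p = 6.7e-21). Atf3, a stress-induced transcription factor, had 18.3 and 21.4 CPM with APH, against 3.12 and 2.68 CPM with DMSO (log2 fold change 2.76 ± 0.19, adjusted p = 1.1e-13). These genes were picked among genes without overlap between the treatments, so that separation was set by the choice. Gbp3, Cxcl10, Cdkn1a, Fam212b, Oasl1, Il11, Ccl5 and Trib3 were also among the 12 largest rises, with log2 fold changes of 1.95 to 2.57. Il11, a cytokine of the interleukin-6 family, had 13.5 and 15.2 CPM with APH, against 2.90 and 3.04 CPM with DMSO. Fam212b, also named Inka2 and an inhibitor of the kinase PAK4, had 15.4 and 14.6 CPM with APH, against 3.07 and 2.61 CPM with DMSO.

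**Figure D1:**
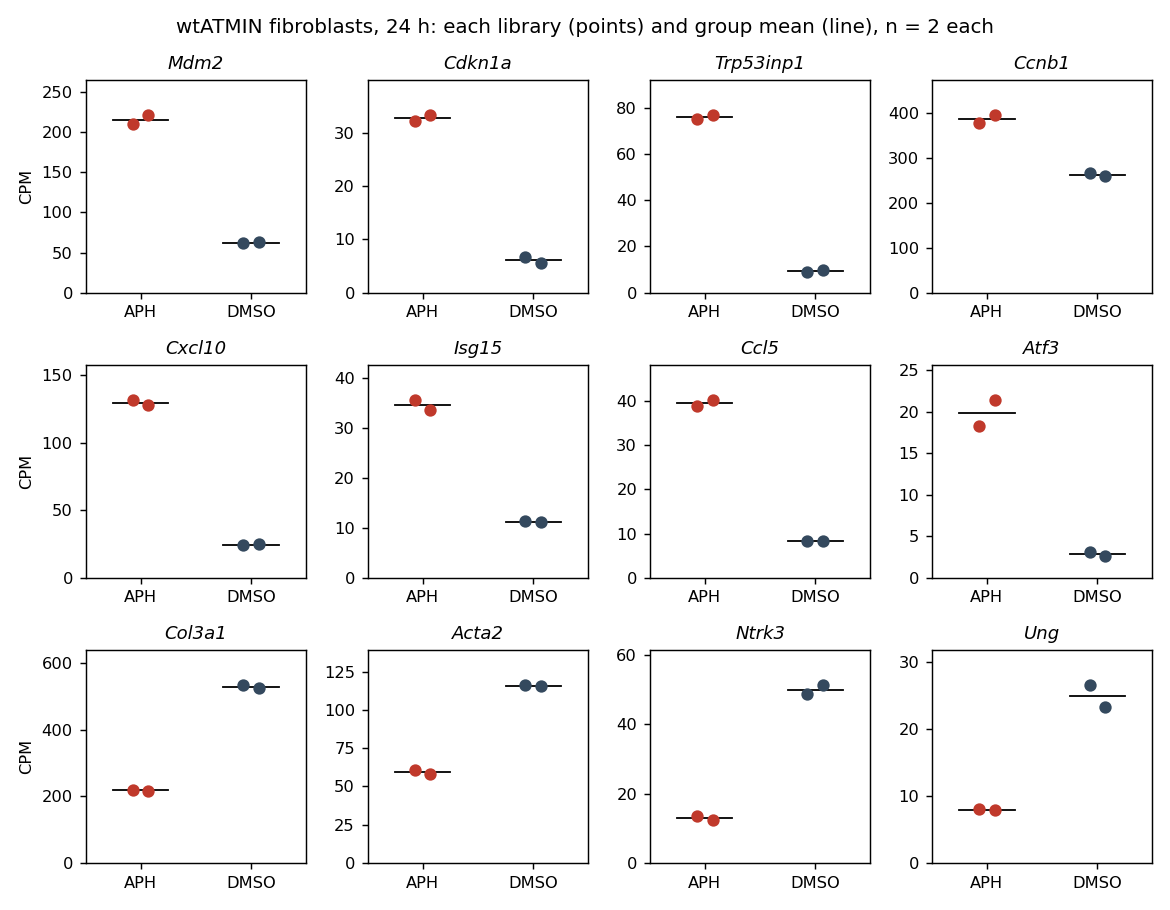
CPM (vertical axis, from 0) of 12 genes in each wtATMIN library at 24 h, with APH on the left and DMSO on the right of each panel; points are libraries and lines are means of 2. Mdm2 to Atf3 are higher with APH, and Col3a1, Acta2, Ntrk3 and Ung are lower. The genes were chosen with their values known, so the lack of overlap is no test.

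The 12 largest falls held several neural or developmental genes of great length and an imprinted pair. Dio3, an enzyme that inactivates thyroid hormone, had 18.4 and 19.5 CPM with APH, against 74.9 and 71.4 CPM with DMSO (log2 fold change -1.95 ± 0.14, adjusted p = 2.3e-11). Dio3os, which is transcribed from the opposite strand at the same locus, had 4.38 and 3.66 CPM with APH, against 16.3 and 14.8 CPM with DMSO. The library kit does not mark the strand and the strand setting of the counting is not given in the sources used here, so the reads of this pair may be mixed. Ogn, a small proteoglycan of connective tissue, had 104 and 105 CPM with APH, against 357 and 389 CPM with DMSO (log2 fold change -1.84 ± 0.11, adjusted p = 1.2e-12). Peg10, an imprinted gene derived from a retrotransposon, had 87.1 and 84.9 CPM with APH, against 261 and 279.9 CPM with DMSO (log2 fold change -1.65 ± 0.09, adjusted p = 1.6e-16). Both were lower in each APH library than in each DMSO library, as the rule for picking them required. Ung, the glycosylase that removes uracil from DNA, fell to 8.07 and 7.86 CPM with APH, against 26.5 and 23.3 CPM with DMSO (adjusted p = 1.7e-13). Galnt9, a glycosyltransferase at a low level, had 1.98 and 3.84 CPM with APH, against 9.58 and 11.1 CPM with DMSO. The other 6 genes, Ntrk3, Kirrel3, Csgalnact1, Maml3, Sorcs2 and Piezo2, each span over 300 kb and are taken up with the long genes.

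The genes that name the lines and their pathway differed little between the treatments. Atmin had 27.2 and 29.8 CPM with APH, against 20.7 and 20.4 CPM with DMSO (log2 fold change 0.47 ± 0.10, adjusted p = 3.5e-04) and was called higher. Atm had 109.5 and 98.7 CPM with APH, against 78.4 and 85.4 CPM with DMSO, without overlap, but was not called (log2 fold change 0.35 ± 0.14, adjusted p = 0.057). It was called when the compared groups were fitted alone, with DESeq2, with library size only and with no filter on low counts. Dynll1, a dynein light chain whose gene ATMIN activates, had 205 and 206 CPM with APH, against 202 and 192 CPM with DMSO and was not called (adjusted p = 0.55). Chek1, the kinase downstream of ATR, had 35.9 and 36.7 CPM with APH, against 40.1 and 46.5 CPM with DMSO and H2afx, the histone variant phosphorylated at breaks, had 68.9 and 72.1 CPM with APH, against 83.02 and 73.9 CPM with DMSO. Neither was called (adjusted p = 0.066 for Chek1 and 0.21 for H2afx), though Chek1 was called lower without the first DMSO library, in the compared groups alone and with no filter, and H2afx in the compared groups alone. In the authors' deposited table, Atm was higher (DESeq2 adjusted p = 3.1e-05) and Chek1 lower (DESeq2 adjusted p = 0.041). There H2afx did not pass (DESeq2 adjusted p = 0.10). All of these are RNA levels and say nothing of the phosphorylation by which ATM and its partners are read.

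The targets of p53 rose as a group, while the RNA of p53 itself, Trp53, was close to its DMSO level. Trp53 had 234 and 233 CPM with APH, against 219 and 210.4 CPM with DMSO (log2 fold change 0.12 ± 0.06, adjusted p = 0.12). Among the refits made here, it passed the test only with library size alone and with the compared groups alone. In the authors' deposited table it was just under the threshold (DESeq2 adjusted p = 0.049). Among 18 targets in feedback and arrest, 14 were called higher and 2 lower, with a median log2 fold change of 0.75, against 0 over all genes tested. Mdm2, the ubiquitin ligase that degrades p53, at chr10:117688875-117710758 on mm10, had 210.03 and 221 CPM with APH, against 62.2 and 62.6 CPM with DMSO (log2 fold change 1.79 ± 0.06, adjusted p = 3.6e-21). Cdkn1a, the cyclin-dependent kinase inhibitor p21, at chr17:29090976-29100727, had 32.3 and 33.3 CPM with APH, against 6.72 and 5.59 CPM with DMSO (log2 fold change 2.396 ± 0.16, adjusted p = 1.0e-11). Replicates were close, and the 2 treatments were far apart for both genes. Ccng1, cyclin G1, had 162 and 159 CPM with APH, against 68.04 and 68.3 CPM with DMSO. Sesn2, a sestrin that restrains mTORC1, had 37.3 and 37.1 CPM with APH, against 13.3 and 10.5 CPM with DMSO. Btg2, an antiproliferative factor, had 75.2 and 70.5 CPM with APH, against 33.2 and 31.7 CPM with DMSO. All 3 were called higher, with log2 fold changes of 1.23 ± 0.08 for Ccng1, 1.63 ± 0.12 for Sesn2 and 1.16 ± 0.09 for Btg2. The 2 members called lower were Sesn1 (-0.25) and Btg1 (-0.22), and the 2 not called were Sfn and Rprm. With library size alone no member was called lower, and with DESeq2 1 was.

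Of 14 tested targets in cell death, 11 were called higher and none lower, with a median of 0.65. Fas, a death receptor, had 10.3 and 11.9 CPM with APH, against 3.43 and 2.86 CPM with DMSO (log2 fold change 1.80 ± 0.19, adjusted p = 3.9e-09). Eda2r, a receptor of the tumour necrosis factor family, had 6.25 and 4.37 CPM with APH, against 0.879 and 0.973 CPM with DMSO (log2 fold change 2.53 ± 0.24, adjusted p = 2.1e-10). Pmaip1, the BH3-only protein Noxa, had 8.44 and 9.22 CPM with APH, against 2.90 and 3.40 CPM with DMSO (log2 fold change 1.50 ± 0.17, adjusted p = 1.4e-08). Each of these receptors and death effectors was low with DMSO, and each was picked for a small p. Perp (1.31 ± 0.14), Pidd1 (0.81 ± 0.10) and Ei24 (0.44 ± 0.06) also rose on the log2 scale. The 3 members not called were Siva1, Bax and Tnfrsf10b, and Bax, a core pore-forming protein of apoptosis, had 64.5 and 68.6 CPM with APH, against 72.9 and 67.6 CPM with DMSO.

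Of 20 targets in repair, metabolism and signalling, 15 were called higher and 2 lower, with a median of 0.52. Polk, a translesion DNA polymerase, had 39.5 and 39.05 CPM with APH, against 17.97 and 20.6 CPM with DMSO (log2 fold change 1.03 ± 0.10, adjusted p = 3.2e-10). Ercc5, the nuclease XPG of nucleotide excision repair, had 41.4 and 42.4 CPM with APH, against 23.5 and 25.7 CPM with DMSO (log2 fold change 0.77 ± 0.11, adjusted p = 1.2e-06). Abhd4, Ephx1 and Dcxr, all enzymes, rose by 0.83, 0.65 and 1.58 on the log2 scale. Ndrg1, which is also induced by low oxygen, went the other way, with 102 and 98.9 CPM with APH, against 163 and 159 CPM with DMSO (log2 fold change -0.68 ± 0.08, adjusted p = 9.1e-09), and Sulf2 was the other member called lower. Gdf15, a secreted stress cytokine, had 2.24 and 2.13 CPM with APH, against 0.132 and 0.304 CPM with DMSO.

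**Figure D2:**
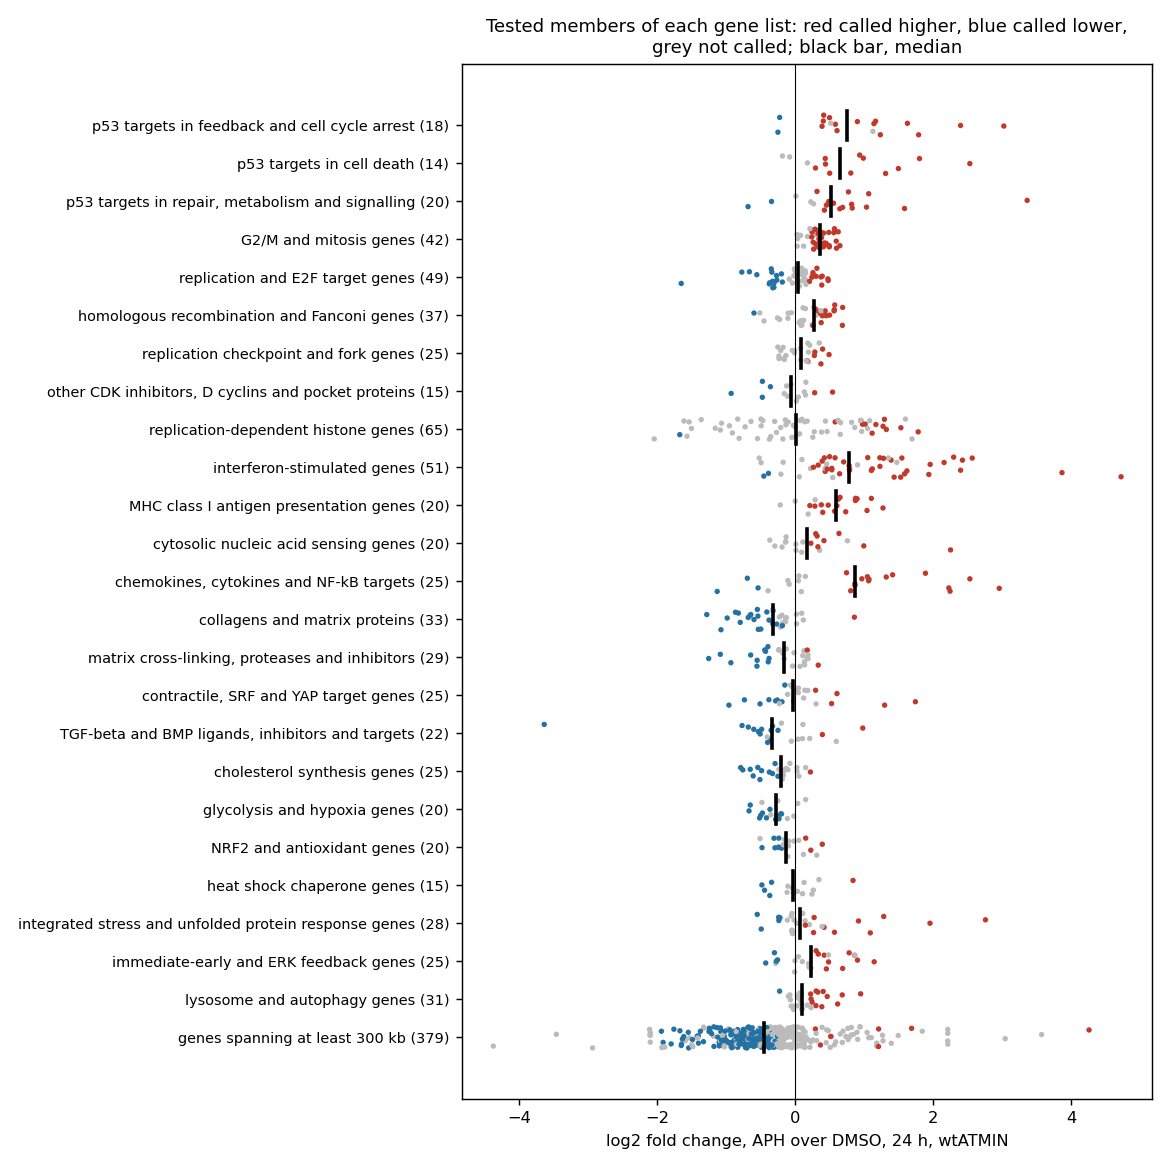
Log2 fold change of APH over DMSO at 24 h in wtATMIN (horizontal axis) for every tested member of 25 gene lists, one row per list with the number of members tested; red points were called higher, blue points lower and grey points not called, and black bars are medians. The p53, interferon, MHC class I, chemokine and G2/M rows lie mostly to the right of 0, and the matrix, TGF-beta, glycolysis and long-gene rows mostly to the left.

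Genes of G2 and mitosis rose modestly but broadly. Of 42 such genes, 34 were called higher and none lower, with a median log2 fold change of 0.36 and a range of 0.03 to 0.65. Kif2c, a kinesin that removes tubulin from microtubule ends, had 197 and 197 CPM with APH, against 126 and 129.6 CPM with DMSO (log2 fold change 0.62 ± 0.06, adjusted p = 3.6e-10). Ccnb1, cyclin B1, had 378 and 395 CPM with APH, against 266 and 258 CPM with DMSO (log2 fold change 0.56 ± 0.06, adjusted p = 4.7e-09). Ccnb2, cyclin B2, had 239 and 241 CPM with APH, against 157 and 149 CPM with DMSO (log2 fold change 0.65 ± 0.08, adjusted p = 2.5e-08). The rise was under 2-fold in every member. The treatments did not overlap in these 3 genes, but they were picked for a small p. Kif20a, a kinesin of cytokinesis, Nek2, a centrosome kinase, and Cdc25b, a phosphatase that activates CDK1, rose by 0.49, 0.59 and 0.57.

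Many G2/M promoters carry the cell cycle genes homology region, whose core reads TTTGAA and which is bound by the DREAM and MuvB complexes. RefSeq promoters on GRCm38.p6, each 250 bases before to 50 bases after the gene's start, were matched for 35 of the 42 genes, and TTTGAA was searched on both strands. It was found in 24 of these 35 (68.6%), against 5466 of 27025 promoters of all genes (20.2%). Of the 24 with the letters, 19 were called higher, and of the 11 without them, 8. Shown are the promoters of the 3 G2/M genes with the smallest p that hold the letters, 5′ to 3′ on the gene's strand, with TTTGAA, or TTCAAA where it lies on the opposite strand, in capitals.
Kif2c, chr4:117178723-117179022, minus strand: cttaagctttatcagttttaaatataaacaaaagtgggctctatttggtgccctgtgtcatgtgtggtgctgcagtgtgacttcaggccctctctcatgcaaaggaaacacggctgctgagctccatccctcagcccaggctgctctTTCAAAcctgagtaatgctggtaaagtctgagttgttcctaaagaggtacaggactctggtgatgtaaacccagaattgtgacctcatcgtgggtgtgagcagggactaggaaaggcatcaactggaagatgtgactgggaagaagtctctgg
Ccnb2, chr9:70421505-70421804, minus strand: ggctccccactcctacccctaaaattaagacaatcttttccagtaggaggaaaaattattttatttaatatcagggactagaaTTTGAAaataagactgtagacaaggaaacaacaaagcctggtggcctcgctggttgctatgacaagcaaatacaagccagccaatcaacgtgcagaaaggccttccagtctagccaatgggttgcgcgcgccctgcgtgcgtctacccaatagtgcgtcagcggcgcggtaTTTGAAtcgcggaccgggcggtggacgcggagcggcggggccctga
Ube2c, chr2:164769679-164769978, plus strand: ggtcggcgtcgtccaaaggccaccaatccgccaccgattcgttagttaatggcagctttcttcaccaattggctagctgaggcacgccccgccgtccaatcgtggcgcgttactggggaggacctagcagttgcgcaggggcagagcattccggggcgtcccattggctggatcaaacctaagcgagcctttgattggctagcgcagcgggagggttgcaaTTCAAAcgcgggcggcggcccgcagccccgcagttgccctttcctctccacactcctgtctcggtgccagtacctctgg
Counted from the gene's first base as 0, the match begins at position -103 in Kif2c, at -167 and 4 in Ccnb2 and at -29 in Ube2c. Ube2c, an enzyme of the anaphase-promoting complex pathway, had 197 and 196 CPM with APH, against 132 and 127 CPM with DMSO. A match is a description of the letters, not a binding site.

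Genes of DNA replication and other E2F targets did not move together. Of 49, 11 were called higher (22.4%, against 13.6% of all genes) and 16 lower (32.7%, against 15.3%), with a median of 0.04. With library size alone these counts turned to 16 and 12. The licensing helicase was lower throughout its subunits: Mcm2, Mcm3, Mcm4, Mcm5, Mcm6 and Mcm7 had log2 fold changes of -0.34, -0.27, -0.35, -0.27, -0.56 and -0.19 and were all called lower with the main scaling. Mcm6 had 212 and 212 CPM with APH, against 312 and 311 CPM with DMSO (adjusted p = 3.9e-09). Primase and polymerase alpha, the enzyme complex that starts DNA strands and that aphidicolin inhibits, were uneven. Prim2, a primase subunit, had 41.4 and 42.3 CPM with APH, against 70.5 and 72.5 CPM with DMSO (log2 fold change -0.77 ± 0.08, adjusted p = 7.1e-09). Pola1, the catalytic subunit of polymerase alpha, changed by -0.66 ± 0.13 and was called lower, while Prim1 (0.09) and Pola2 (0.09) were not called. Prim2 and Pola1 also span more of the genome than most of this list, at 216 and 327 kb. Rrm2, a subunit of ribonucleotide reductase that makes DNA precursors, went up, with 249.8 and 264 CPM with APH, against 195 and 196 CPM with DMSO (log2 fold change 0.39 ± 0.06, adjusted p = 2.2e-06). Mcm10, a fork assembly factor, had 90.4 and 96.5 CPM with APH, against 63.7 and 70.6 CPM with DMSO (log2 fold change 0.48 ± 0.07, adjusted p = 3.5e-06).

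Repair genes of homologous recombination and the Fanconi pathway leaned upward. Of 37, 17 were called higher and 1 lower, with a median of 0.27. Brca1, which promotes recombination, had 131 and 127 CPM with APH, against 78.3 and 82.1 CPM with DMSO (log2 fold change 0.69 ± 0.07, adjusted p = 6.8e-09). Fancd2, the Fanconi protein loaded at stalled forks, had 91.8 and 93.7 CPM with APH, against 54.2 and 61.5 CPM with DMSO (log2 fold change 0.68 ± 0.08, adjusted p = 7.5e-08). Both genes were higher in each APH library than in each DMSO library, but were picked for a small p. Exons of Rad54l, Fanca and Fancl overlap those of an expressed gene on the other strand, as do those of Kif20a, Leprel1, Ndrg1, Nfkb2, Ddit3, Dusp1 and H2-Q4, so reads of these genes may be mixed with those of their neighbours. Fanca and Rad54l rose by 0.57 and 0.43, and Fancl, the ubiquitin ligase of the pathway, was the 1 member called lower, with 10.1 and 12.2 CPM with APH, against 17.4 and 16.1 CPM with DMSO. Without the first DMSO library, 10 members were called higher.

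Of 25 genes of the replication checkpoint and fork protection, 6 were called higher (24.0% of the list, against 13.6% of all genes) and none lower. Without the first APH library, or without either DMSO library, 3 were called higher, and with the compared groups alone 10 were called higher and 4 lower, with no filter 5 and 2. Mdc1, which binds phosphorylated H2AX, had 186 and 175 CPM with APH, against 124 and 133 CPM with DMSO (log2 fold change 0.49 ± 0.08, adjusted p = 6.2e-06). Clspn, the ATR adaptor claspin, had 140.2 and 138 CPM with APH, against 102 and 109.5 CPM with DMSO (log2 fold change 0.40 ± 0.06, adjusted p = 9.2e-06). Timeless, a fork protection factor, had 191 and 193 CPM with APH, against 149 and 148 CPM with DMSO (log2 fold change 0.37 ± 0.07, adjusted p = 8.9e-05). Among 15 other CDK inhibitors, D cyclins and pocket proteins, 2 were called higher and 4 lower, or 2 lower without the second APH library, and the median of -0.06 became 0.02 with library size alone. With the main scaling, 13.3% of this list were called higher and 26.7% lower, against 13.6% and 15.3% of all genes. Ccnd2, cyclin D2, had 36.9 and 35.6 CPM with APH, against 25.7 and 23.96 CPM with DMSO (log2 fold change 0.54 ± 0.07, adjusted p = 7.0e-07). Cdkn2a, the Ink4a and Arf locus, had 158 and 166 CPM with APH, against 216 and 199 CPM with DMSO (log2 fold change -0.36 ± 0.07, adjusted p = 2.8e-04). Cdkn2b, the inhibitor p15, had 15.9 and 15.004 CPM with APH, against 21.3 and 21.8 CPM with DMSO (log2 fold change -0.48 ± 0.11, adjusted p = 8.7e-04).

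Most replication-dependent histone genes were not called. Of 65 tested, 11 were called higher (16.9%, near the 13.6% of all genes) and 1 lower, with a median of 0.01. Hist1h2bc had 27.7 and 27.1 CPM with APH, against 11.2 and 11.5 CPM with DMSO (log2 fold change 1.27 ± 0.13, adjusted p = 3.3e-09). Hist1h1c, a linker histone H1, had 30.9 and 28.2 CPM with APH, against 20.1 and 19.5 CPM with DMSO (log2 fold change 0.58 ± 0.11, adjusted p = 1.8e-04). Hist1h4i, the only member called lower, had 1.12 and 1.18 CPM with APH, against 3.51 and 3.89 CPM with DMSO. The copies of a histone are nearly identical, so reads may be shared among them and the single members are uncertain. Without the second APH library 4 members were called higher, without the first DMSO library 7 and without the second DMSO library 4.

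Interferon-stimulated genes rose strongly. Of 51 tested, 36 were called higher (70.6%, against 13.6% of all genes) and 2 lower, with a median log2 fold change of 0.79. Cxcl10, a chemokine that draws T cells, had 131 and 128 CPM with APH, against 24.3 and 24.9 CPM with DMSO (log2 fold change 2.396 ± 0.09, adjusted p = 1.8e-20). Isg15, a ubiquitin-like modifier, had 35.6 and 33.7 CPM with APH, against 11.4 and 11.1 CPM with DMSO (log2 fold change 1.62 ± 0.11, adjusted p = 7.5e-14). Gbp3, a guanylate-binding protein, had 9.14 and 8.74 CPM with APH, against 1.49 and 1.52 CPM with DMSO (log2 fold change 2.57 ± 0.19, adjusted p = 1.2e-12). Both APH libraries stood far above both DMSO libraries in all 3 genes, which were picked for a small p or a large change. Rsad2, the antiviral enzyme viperin, was near the limit of counting with DMSO, at 0.571 and 0.608 CPM, and reached 8.07 and 9.27 CPM with APH. Oasl1 and Ifit1, an inhibitor of Irf7 translation and a binder of foreign RNA, had log2 fold changes of 2.30 ± 0.18 and 1.59 ± 0.13. The transcription factors of the response were among the members that rose: Irf7 by 2.16, Stat2 by 0.78 and Irf9 by 0.53, while Irf1 was not called (0.22, adjusted p = 0.062). Ifit2 and Ifit3 were the 2 called lower (-0.39 and -0.45), though Ifit1 of the same family rose. Of the list, 45 members had a log2 fold change above 0, and the lowest value was -0.52, below those of Ifit2 and Ifit3. With DESeq2, 1 member was called lower.

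The interferon-stimulated response element holds a pair of GAAA runs and is bound by complexes of Stat and Irf proteins. It was searched on both strands as GAAA, any 2 bases and GAAA again. Of the 51 genes, 39 had a RefSeq promoter, and the letters were found on either strand in 21 of them (53.8%), against 1079 of 27025 promoters of all genes (3.99%). Of the 21 with a match, 16 were called higher, with a median log2 fold change of 1.05, and of the 18 without a match, 11, with a median of 0.48. Shown are the promoters of the 3 members with the smallest p that hold the element, 5′ to 3′ on the gene's strand, with the match in capitals.
Cxcl10, chr5:92348840-92349139, minus strand: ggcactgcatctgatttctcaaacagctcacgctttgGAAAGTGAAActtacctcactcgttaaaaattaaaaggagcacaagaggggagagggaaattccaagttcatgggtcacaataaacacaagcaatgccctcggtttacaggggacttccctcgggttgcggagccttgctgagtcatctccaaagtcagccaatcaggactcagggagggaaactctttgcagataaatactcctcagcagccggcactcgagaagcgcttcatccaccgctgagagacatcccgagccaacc
Isg15, chr4:156200769-156201068, minus strand: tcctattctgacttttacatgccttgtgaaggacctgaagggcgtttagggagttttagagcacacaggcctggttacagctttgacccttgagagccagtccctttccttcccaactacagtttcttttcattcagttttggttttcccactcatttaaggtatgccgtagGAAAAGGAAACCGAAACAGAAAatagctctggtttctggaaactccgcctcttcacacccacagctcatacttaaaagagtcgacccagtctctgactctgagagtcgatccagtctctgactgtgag
Gbp3, chr3:142559794-142560093, plus strand: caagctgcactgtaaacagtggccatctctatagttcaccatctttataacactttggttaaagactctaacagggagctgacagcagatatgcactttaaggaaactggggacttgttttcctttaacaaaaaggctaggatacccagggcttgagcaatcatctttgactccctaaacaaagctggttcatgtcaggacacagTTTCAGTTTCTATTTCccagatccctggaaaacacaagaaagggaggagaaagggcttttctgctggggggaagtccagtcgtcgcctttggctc
The match begins at position -213 in Cxcl10. In Isg15 there are 3 overlapping matches, from -78 to -66, and in Gbp3 there are 2 overlapping matches on the opposite strand, beginning at -45 and -39.

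Genes of MHC class I antigen presentation rose with them: 16 of 20 were called higher and none lower, with a median of 0.59. H2-K1, a classical class I heavy chain, had 274 and 265 CPM with APH, against 142 and 119.7 CPM with DMSO (log2 fold change 1.04 ± 0.09, adjusted p = 3.5e-11). H2-D1, the other classical chain, had 311 and 318 CPM with APH, against 207 and 194 CPM with DMSO (log2 fold change 0.65 ± 0.07, adjusted p = 7.4e-09). B2m, the common light chain, had 388 and 393 CPM with APH, against 284 and 277 CPM with DMSO (log2 fold change 0.48 ± 0.07, adjusted p = 1.1e-06). The class I heavy chains are close paralogs, and reads may be split among H2-K1, H2-D1, H2-Q4 and H2-Q6. Of 20 genes of cytosolic nucleic acid sensing, 8 were called higher (40%, against 13.6% of all genes) and none lower, with a median of 0.17. Tmem173, the adaptor STING, had 29.8 and 29.5 CPM with APH, against 17.7 and 11.7 CPM with DMSO (log2 fold change 0.99 ± 0.13, adjusted p = 2.1e-07). Mb21d1, the DNA sensor cGAS, had 36.9 and 39.7 CPM with APH, against 27.6 and 29.9 CPM with DMSO (log2 fold change 0.42 ± 0.09, adjusted p = 5.7e-04). Zbp1, a sensor of Z-form nucleic acids, had 3.69 and 3.49 CPM with APH, against 0.571 and 0.973 CPM with DMSO, and Ikbke, a kinase of the interferon pathway, had 18.01 and 17.1 CPM with APH, against 10.7 and 11.98 CPM with DMSO.

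Chemokines, cytokines and NF-kB targets also rose, with 15 of 25 called higher (60%, against 13.6% of all genes) and a median of 0.86. The 3 called lower were 12% of the list, against 15.3% of all genes. Ccl5, a chemokine, had 38.9 and 40.2 CPM with APH, against 8.35 and 8.33 CPM with DMSO (log2 fold change 2.24 ± 0.14, adjusted p = 6.2e-14). Ccl2, which draws monocytes, had 86.4 and 85.5 CPM with APH, against 21.3 and 25.4 CPM with DMSO (log2 fold change 1.89 ± 0.12, adjusted p = 2.8e-13). Relb, a subunit of noncanonical NF-kB, had 44.6 and 44.1 CPM with APH, against 22.5 and 19.5 CPM with DMSO, and its partner Nfkb2 rose by 0.97 on the log2 scale. Tnfaip3, the NF-kB inhibitor A20, had 20.8 and 20.97 CPM with APH, against 8.43 and 8.27 CPM with DMSO (log2 fold change 1.32 ± 0.11, adjusted p = 4.0e-11). Cxcl12, a chemokine that fibroblasts make at rest, fell to 150.1 and 163 CPM with APH, against 342 and 342 CPM with DMSO (log2 fold change -1.13 ± 0.08, adjusted p = 1.3e-13). Cxcl1 and Cxcl5, also chemokines, were the other members called lower. Il6, an inflammatory cytokine, had 3.47 and 3.19 CPM with APH, against 0.351 and 0.851 CPM with DMSO.

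Collagens and matrix proteins fell: 20 of 33 were called lower (60.6%, against 15.3% of all genes) and 1 higher, with a median of -0.33. Col3a1, a fibrillar collagen chain, had 218 and 216 CPM with APH, against 532 and 524 CPM with DMSO (log2 fold change -1.28 ± 0.07, adjusted p = 1.8e-15). Col1a2, a chain of type I collagen, had 197 and 209 CPM with APH, against 358 and 347 CPM with DMSO (log2 fold change -0.80 ± 0.07, adjusted p = 1.6e-10). Col6a1, a chain of the microfibrillar type VI collagen, had 1321 and 1273 CPM with APH, against 1900.3 and 1870.2 CPM with DMSO (log2 fold change -0.54 ± 0.07, adjusted p = 4.5e-07). These abundant transcripts were lower in both APH libraries. Fbn2, a fibrillin, and Thbs2, a thrombospondin, fell by 0.99 and 0.60 on the log2 scale. Col5a3 was the 1 member called higher, with 46.9 and 47.7 CPM with APH, against 25.4 and 26.8 CPM with DMSO. Of 29 genes of matrix cross-linking and proteolysis, 11 were called lower (37.9%, against 15.3% of all genes) and 2 higher (6.90%, against 13.6%). The median was -0.16, and with library size alone 11 were lower and 9 higher. Lox, which cross-links collagen, had 573 and 586 CPM with APH, against 824 and 874 CPM with DMSO (log2 fold change -0.55 ± 0.07, adjusted p = 1.9e-07). Leprel1, a collagen prolyl hydroxylase, had 32.1 and 31.1 CPM with APH, against 75.9 and 74.8 CPM with DMSO (log2 fold change -1.25 ± 0.09, adjusted p = 4.5e-13). Mmp2, a gelatinase, and its inhibitor Timp2 fell by 0.44 and 0.39. The summed fibroblast markers, given above, were also lower in both APH libraries, and their part in these falls was not tested.

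The TGF-beta and BMP list, whose ligands drive collagen genes, also had 12 of 22 members called lower and 2 higher, with a median of -0.34. Tgfb3, a ligand, had 34.995 and 35.1 CPM with APH, against 62.5 and 56.7 CPM with DMSO (log2 fold change -0.77 ± 0.09, adjusted p = 1.4e-08). Id2, a target of BMP signalling, had 62.5 and 62.6 CPM with APH, against 91.1 and 86.5 CPM with DMSO (log2 fold change -0.51 ± 0.08, adjusted p = 3.9e-06). Bmp4, a ligand, had 53.6 and 56.1 CPM with APH, against 82.3 and 76.2 CPM with DMSO. Inhibitors were lower as well: Smad6 and Fst fell by 0.68 and 0.60. The 2 members called higher were Inhba, a subunit of activin, and Smad7, an inhibitory Smad. Contractile, SRF and YAP target genes were mixed, with 5 higher and 8 lower of 25, or 5 lower without the first DMSO library. Acta2, smooth muscle actin, had 60.9 and 58.1 CPM with APH, against 116 and 116 CPM with DMSO (log2 fold change -0.96 ± 0.06, adjusted p = 1.2e-13). Cyr61, a matricellular YAP target, had 604 and 616 CPM with APH, against 437 and 409 CPM with DMSO (log2 fold change 0.53 ± 0.07, adjusted p = 1.8e-07). Flna, the actin cross-linker filamin A, had 998 and 964 CPM with APH, against 1375 and 1419 CPM with DMSO. Of this list, 20% were called higher and 32% lower, against 13.6% and 15.3% of all genes. Its median, -0.03, became 0.05 with library size alone.

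Cholesterol synthesis and glycolysis genes that passed the test were lower but for 1. Of 25 cholesterol synthesis genes, 11 were called lower and 1 higher, with a median of -0.20. Hmgcs1, an early enzyme of the pathway, had 97.5 and 102 CPM with APH, against 172 and 174 CPM with DMSO (log2 fold change -0.79 ± 0.07, adjusted p = 8.0e-11). Insig1, the sterol sensor that holds back SREBP, had 35.7 and 39.05 CPM with APH, against 64.5 and 61.8 CPM with DMSO. Glycolysis and hypoxia genes had 13 of 20 called lower and none higher, with a median of -0.28, and 8 were called lower without the first DMSO library. Eno1, enolase, had 614 and 641 CPM with APH, against 1034 and 961 CPM with DMSO (log2 fold change -0.67 ± 0.06, adjusted p = 2.4e-10). Ldha and Pgk1, further glycolytic enzymes, fell by 0.50 and 0.47. With library size alone, 7 glycolysis genes were called lower and 1 higher. Of 20 NRF2 and antioxidant genes, 7 were called lower (35%, against 15.3% of all genes) and 3 higher (15%, near the 13.6% of all genes). With library size alone these counts were 3 and 4. Hmox1, heme oxygenase, was among those higher, with 109.5 and 112 CPM with APH, against 87.5 and 80.8 CPM with DMSO. Of 15 heat shock chaperones, 4 were called lower (26.7%, against 15.3% of all genes) and 1 higher (6.67%, against 13.6%). Hspa8, the constitutive Hsp70, had 1064 and 1025 CPM with APH, against 1451 and 1468 CPM with DMSO, and Cryab, a small heat shock protein, had 19.5 and 19.7 CPM with APH, against 11.2 and 10.7 CPM with DMSO. The median of this list, -0.03, became 0.06 with library size alone.

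Stress-response genes rose only in part. Of 28 genes of the integrated stress and unfolded protein response, 10 were called higher (35.7%, against 13.6% of all genes) and 5 lower (17.9%, against 15.3%). The median was 0.07. With library size alone these counts were 14 and 2, with a median of 0.15. Trib3, a pseudokinase, had 26.3 and 26.3 CPM with APH, against 7.12 and 6.38 CPM with DMSO (log2 fold change 1.95 ± 0.13, adjusted p = 6.2e-14). Ppp1r15a, the phosphatase subunit GADD34, had 54.3 and 53.99 CPM with APH, against 24.6 and 26.5 CPM with DMSO (log2 fold change 1.09 ± 0.09, adjusted p = 8.1e-12). Ddit3, the factor CHOP, had 31.8 and 29.1 CPM with APH, against 16.6 and 15.6 CPM with DMSO (log2 fold change 0.92 ± 0.10, adjusted p = 1.7e-08). In contrast Hspa5, the chaperone BiP of the endoplasmic reticulum, had 815 and 822 CPM with APH, against 822 and 835 CPM with DMSO and was not called (adjusted p = 0.90), and Asns, the asparagine synthetase that Atf4 induces, was not called either (adjusted p = 0.69). Of 25 immediate-early and ERK feedback genes, 10 were called higher (40%, against 13.6% of all genes) and 4 lower (16%, near the 15.3% of all genes). The median was 0.23, and with library size alone the counts were 13 and 1. Dusp6, a phosphatase of ERK, had 18.2 and 20.1 CPM with APH, against 10.3 and 10.2 CPM with DMSO, and Dusp1, another MAP kinase phosphatase, rose by 0.86. Fos, a part of AP-1, had 25.9 and 24.1 CPM with APH, against 15.3 and 13.7 CPM with DMSO. Without the second DMSO library, 6 of this list were called higher. Of 31 lysosome and autophagy genes, 12 were called higher (38.7%, against 13.6% of all genes) and 1 lower (3.23%, against 15.3%), with a median of 0.09. Man2b1 and Neu1, lysosomal glycosidases, rose by 0.68 and 0.95, and Sqstm1, the autophagy receptor p62, had 292 and 286 CPM with APH, against 197 and 179.6 CPM with DMSO.

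Very long genes fell more often than short ones. Of 379 tested genes that span at least 300 kb in the annotation, 166 were called lower (43.8%, against 15.3% of all genes) and 7 higher, with a median log2 fold change of -0.46. The share called lower was 13.1% of 11931 genes under 30 kb, 13.3% of 4176 genes of 30 to 100 kb and 31.2% of 1563 genes of 100 to 300 kb. Among the 182 long genes with a mean of at least 5 CPM, a limit added after the data were seen, 134 were called lower (73.6%) and 3 higher. At that level, 19.9% of genes under 30 kb were called lower. With library size alone, 147 of the 379 were called lower and 8 higher. Long genes at or above 300 kb and the other lengths were compared as counts only, and the part of gene function or level in this pattern was not tested.

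The long genes that fell come from many families. Ntrk3, the receptor of neurotrophin-3, spans 562 kb at chr7:78175959-78738012 on mm10 and had 13.6 and 12.4 CPM with APH, against 48.7 and 51.3 CPM with DMSO (log2 fold change -1.94 ± 0.13, adjusted p = 1.4e-13). Setbp1, a nuclear protein that binds SET and whose gene spans 359 kb, had 19.8 and 16.2 CPM with APH, against 50.2 and 51.1 CPM with DMSO (log2 fold change -1.49 ± 0.10, adjusted p = 2.8e-13). In both genes the APH libraries lay well below the DMSO libraries, but both were picked for a large change or a small p. Fto, an RNA demethylase, had 93.3 and 99.2 CPM with APH, against 182 and 179 CPM with DMSO (log2 fold change -0.91 ± 0.06, adjusted p = 3.3e-13). Prkca, protein kinase C alpha, had 48.1 and 47.9 CPM with APH, against 88.9 and 93.8 CPM with DMSO (log2 fold change -0.93 ± 0.07, adjusted p = 1.3e-12). Sorcs2, a sorting receptor, had 15.5 and 16.4 CPM with APH, against 47.97 and 49.98 CPM with DMSO (log2 fold change -1.61 ± 0.11, adjusted p = 3.3e-13). Kirrel3, an adhesion molecule, Csgalnact1, an enzyme of chondroitin sulfate synthesis, Maml3, a Notch coactivator, and Piezo2, a mechanosensitive channel, fell by 1.67, 1.65, 1.63 and 1.54. Wwox, which spans 913 kb and hosts a common fragile site in human cells, had 9.24 and 9.92 CPM with APH, against 7.29 and 8.21 CPM with DMSO and was not called (adjusted p = 0.13). The long genes called higher with at least 5 CPM were Pde4b (0.51), Arhgef28 (0.37) and Cep128 (0.29).

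**Figure D3:**
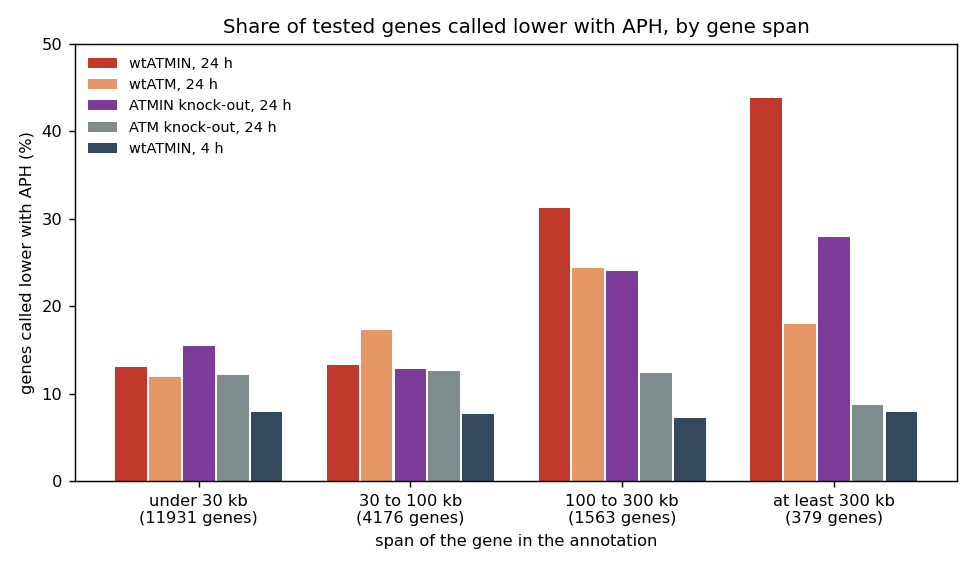
Percent of tested genes called lower with APH against DMSO (vertical axis, from 0) in 4 classes of gene span (horizontal axis, with the number of genes), with 1 bar per line and time. For wtATMIN at 24 h the bars are 13.1%, 13.3%, 31.2% and 43.8% from the shortest to the longest class, and at 4 h they stay at 7.23% to 7.95%.

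The 24 h response of wtATMIN differed from its own 4 h response in 3430 genes (18.6% of those tested), with 1685 higher (9.12%) and 1745 lower (9.44%) in the difference of the log2 fold changes. With library size alone the split was 2210 and 1080. Of the 2505 genes higher at 24 h, 328 were also called higher and 279 lower at 4 h. Of the 2826 genes lower at 24 h, 438 were also called lower and 214 higher at 4 h. At 4 h, 7.25% of all genes were called higher and 7.75% lower, 15% in all. Of the p53 targets, 1 of the 18 arrest targets was called higher and 2 lower at 4 h, and none of the 51 interferon genes was called higher and 8 lower. The difference was called higher for 10 of these arrest targets and 29 of these interferon genes, and lower for none. Trp53inp1 changed by -0.22 ± 0.15 at 4 h (adjusted p = 0.39), so the difference was 3.24 ± 0.19 (adjusted p = 6.5e-15). Atg9b had 2.00 and 1.59 CPM with APH and 3.02 and 3.20 CPM with DMSO at 4 h, and the difference was 4.18 ± 0.36. Gbp3 had 1.15 and 0.884 CPM with APH and 1.67 and 1.54 CPM with DMSO at 4 h, with a difference of 3.22 ± 0.36.

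Mitotic genes turned round between the 2 times. At 4 h 35 of the 42 were called lower and 1 higher, with a median of -0.67, and the difference was called higher for 40. Ccnb1 had 110.5 and 108 CPM with APH and 212 and 203 CPM with DMSO at 4 h (log2 fold change -0.92 ± 0.06), and the difference was 1.48 ± 0.09 (adjusted p = 5.8e-15). Of the 65 histone genes, 42 were called lower at 4 h and none higher, and 22 had a difference called higher, while 53 were not called at 24 h. Of the 49 replication genes, 32 were called higher at 4 h and none lower, and the difference was called lower for 25 and higher for none. Among the genes that fell most relative to 4 h were Gjb2, a gap junction connexin, Sorcs2 and Pmepa1, a feedback inhibitor of TGF-beta signalling. Gjb2 averaged 14.7 ± 0.981 CPM with APH and 41.3 ± 1.81 CPM with DMSO at 24 h (SD, n = 2 each), and had 152 and 169 CPM with APH and 77.1 and 68.5 CPM with DMSO at 4 h, a difference of -2.63 ± 0.12 (adjusted p = 3.0e-18). Pmepa1 had 48.4 and 50.3 CPM with APH and 64.97 and 64.03 CPM with DMSO at 24 h, and 244 and 229.6 CPM with APH and 92.7 and 95.3 CPM with DMSO at 4 h, a difference of -1.72 ± 0.11. Both were lower with APH at 24 h and higher with APH at 4 h. Within wtATMIN, the fall of long genes was also a matter of 24 h. At 4 h, 30 of 379 were called lower (7.92%, near the 7.75% of all genes). The difference was called lower for 122 and higher for 6.

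**Figure D4:**
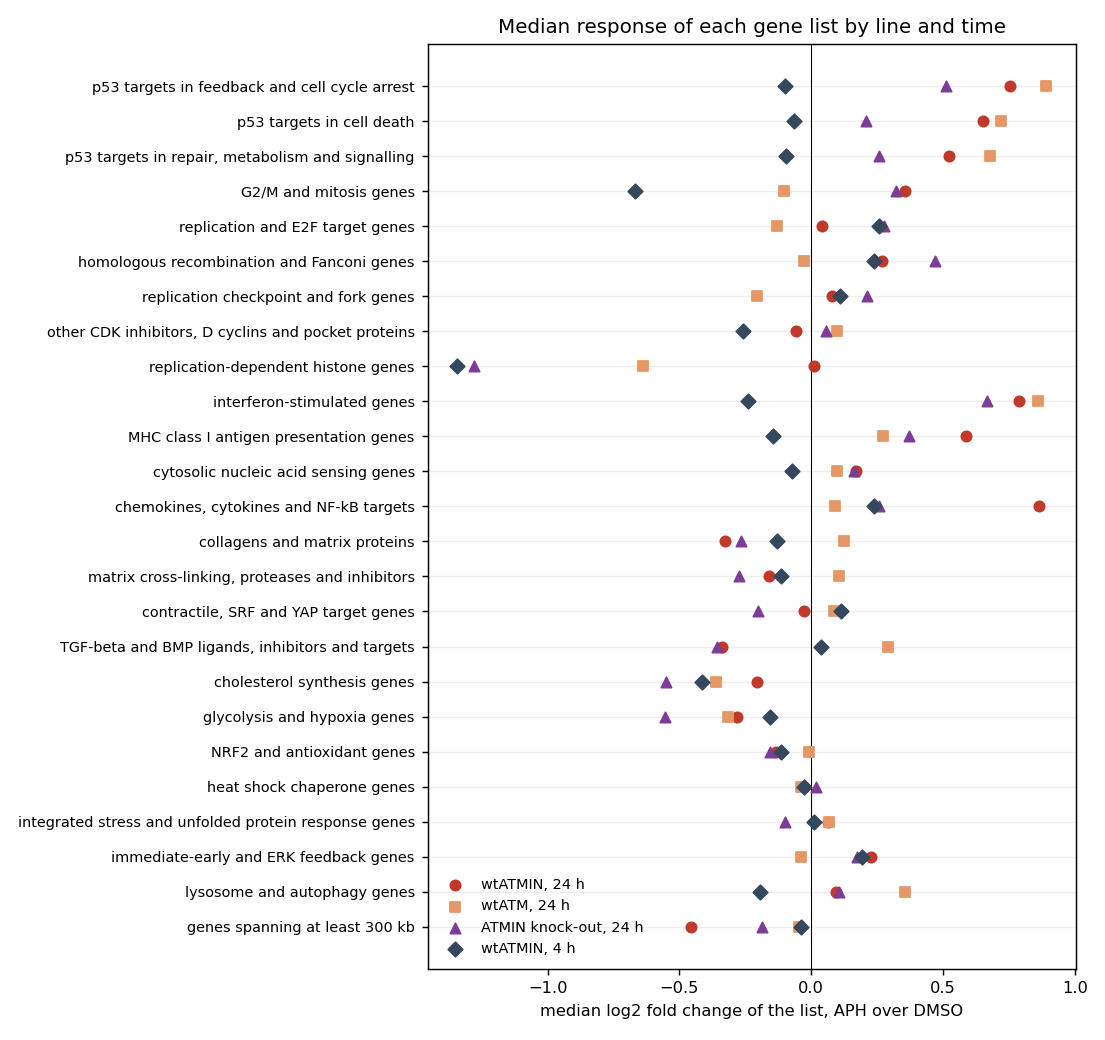
Median log2 fold change of APH over DMSO (horizontal axis) of 25 gene lists, 1 row per list, with circles for wtATMIN at 24 h, squares for wtATM at 24 h, triangles for the ATMIN knock-out line at 24 h and diamonds for wtATMIN at 4 h. The p53 and interferon medians are 0.52 to 0.79 in wtATMIN at 24 h and -0.24 to -0.07 at 4 h, and the long-gene median is -0.46 at 24 h and -0.04 at 4 h.

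In the other wild-type line, wtATM, p53 and interferon genes were also raised, with 16 of 18 arrest targets and 36 of 51 interferon genes called higher, against 14.4% of all genes called higher and 14.3% lower there, 28.7% in all. Many matrix, mitotic and NF-kB genes differed between the lines. The difference of the 24 h responses of wtATMIN and wtATM was called for 2605 genes (14.1%), with 1189 higher (6.43%) and 1416 lower (7.66%) in wtATMIN. Without the first wtATMIN APH library, 699 were called higher, without the second 731, and without the first wtATMIN DMSO library 724. Of the 2505 genes higher in wtATMIN, 1040 were also called higher and 119 lower in wtATM, and of the 2826 genes lower in wtATMIN, 1054 were also called lower and 202 higher. Mdm2 changed by 1.67 ± 0.06 in wtATM and Cxcl10 by 2.21 ± 0.20, and neither difference was called (adjusted p = 0.44 for Mdm2 and 0.71 for Cxcl10). For collagens and matrix proteins the difference was called lower in wtATMIN for 19 of 33 and higher for none, and for TGF-beta and BMP genes it was lower for 13 of 22. Col3a1 had 1427 and 1311 CPM with APH and 1390.4 and 1333 CPM with DMSO in wtATM, so that the difference was -1.29 ± 0.10 (adjusted p = 1.3e-11). Tgfb3 rose in wtATM (log2 fold change 0.72 ± 0.09) and fell in wtATMIN, a difference of -1.49 ± 0.13. For G2/M genes the difference was higher in wtATMIN for 30 of 42 and lower for 1, and for chemokine and NF-kB genes it was higher for 10 of 25 and lower for 3. Of the 379 long genes, 68 were called lower in wtATM at 24 h (17.9%, against 14.3% of all genes) and 22 higher. Of the 182 with at least 5 CPM in wtATMIN at 24 h, 63 were called lower in wtATM (34.6%) and 7 higher. At that level, 17.7% of genes under 30 kb were called lower in wtATM. Over the 379 long genes, the difference was called lower in wtATMIN for 77 and higher for 4.

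Tnfaip3 and Krt80 rose in wtATMIN and fell in wtATM. Tnfaip3 had 21.6 and 22.99 CPM with APH and 30.4 and 34.4 CPM with DMSO in wtATM, a difference of 1.86 ± 0.15 (adjusted p = 4.2e-11). Krt80, a keratin, had 22.9 and 20.7 CPM with APH and 8.26 and 8.88 CPM with DMSO in wtATMIN, and 24.4 and 26.6 CPM with APH and 40.1 and 41.3 CPM with DMSO in wtATM, a difference of 2.03 ± 0.14. Ccl2 did not change detectably in wtATM (log2 fold change 0.08 ± 0.21), and its difference was 1.81 ± 0.25 (adjusted p = 3.7e-06). The histone genes Hist1h2bc and Hist1h1c fell in wtATM and rose in wtATMIN. Hist1h4i was lower in both lines, with 2.39 and 2.54 CPM with APH and 9.02 and 10.3 CPM with DMSO in wtATM. Hist1h2bc fell to 36.1 and 35.4 CPM with APH in wtATM, against 92.4 and 106 CPM with DMSO, a difference of 2.74 ± 0.17 (adjusted p = 2.6e-13). Hist1h1c had a difference of 2.05 ± 0.15. Some of the largest differences rest on a gene that wtATM hardly uses. Pmaip1 had 0 and 0 reads with APH and 1 and 3 reads with DMSO in wtATM, so its difference of 5.46 depends on these few reads, and the call was lost without either wtATM APH library and without the second wtATM DMSO library. Fndc1, a matrix protein, and Prkar1b, a regulatory subunit of protein kinase A, had at most 7 and 10 reads in any wtATM library at 24 h, and their differences of -4.13 and -3.53 are likewise no measure of size. The call was lost without the second wtATM DMSO library for both genes, and for Prkar1b also without the first wtATM APH library and with DESeq2. Plekhg1, a guanine nucleotide exchange factor, had 6.84 and 5.49 CPM with APH and 15.8 and 17.998 CPM with DMSO in wtATMIN, and 74 and 67 reads with APH and 17 and 15 reads with DMSO in wtATM, a difference of -3.68 ± 0.40 (adjusted p = 2.6e-08).

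Fewer differences were called against the ATMIN knock-out line, where the rise of some p53 and interferon genes was smaller. The difference was called for 450 genes (2.43%), 263 higher (1.42%) and 187 lower (1.01%) in wtATMIN, and for 219 to 319 genes when 1 of the 8 libraries was left out, the fewest without the second wtATMIN DMSO library. With the compared groups fitted alone the split turned, with 709 higher and 805 lower of 1514, and with no filter it was 249 and 280. Of the 2505 genes higher in wtATMIN, 1472 were also called higher and 35 lower in the knock-out line, and of the 2826 genes lower, 1836 were also called lower and 21 higher. Of all genes, 14.3% were called higher and 15.8% lower in the knock-out line, 30.2% in all. Among p53 arrest targets, 6 of 18 differences were called higher in wtATMIN and none lower, and among interferon genes 9 of 51 were called higher and 2 lower. Mdm2 had 89.998 and 86.7 CPM with APH and 46.5 and 43.7 CPM with DMSO in the knock-out line (log2 fold change 0.97 ± 0.07), a difference of 0.82 ± 0.09 (adjusted p = 4.3e-07). Cdkn1a had 14.2 and 14.6 CPM with APH and 8.06 and 5.43 CPM with DMSO there, a difference of 1.31 ± 0.25 (adjusted p = 0.0031). Ccl5 had 90.9 and 91.7 CPM with APH and 60.97 and 58.1 CPM with DMSO there, a difference of 1.63 ± 0.18 (adjusted p = 5.4e-07). In all 3, APH was above DMSO in both lines, and the fold was smaller in the knock-out line.

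Trib3 and Hist1h2bc rose in wtATMIN and fell in the knock-out line. Trib3 had 46.2 and 46.2 CPM with APH and 63.8 and 61.2 CPM with DMSO in the knock-out line, and the difference was 2.39 ± 0.16 (adjusted p = 2.8e-12). The DMSO level of Trib3 in the knock-out line was itself many times that of wtATMIN. Hist1h2bc had 3.72 and 3.42 CPM with APH and 11.5 and 12.6 CPM with DMSO in the knock-out line, a difference of 3.02 ± 0.22 (adjusted p = 3.2e-11). Atf3 rose in both, with a difference of 2.07 ± 0.26 (adjusted p = 3.6e-06). Of the genes whose difference was lowest, H19, an imprinted noncoding RNA, had 13.7 and 13.2 CPM with APH and 33.95 and 35.5 CPM with DMSO in wtATMIN, and 4.77 and 4.24 CPM with APH and 4.30 and 4.55 CPM with DMSO in the knock-out line, a difference of -1.40 ± 0.20 (adjusted p = 2.8e-05). Dynll1 rose in the knock-out line (log2 fold change 0.62 ± 0.08) and not in wtATMIN, a difference of -0.56 ± 0.10 (adjusted p = 9.9e-04). In the knock-out line Dynll1 had 46.5 and 44.5 CPM with APH and 30.3 and 28.9 CPM with DMSO. These levels were all far below those of wtATMIN, at 205 and 206 CPM with APH and 202 and 192 CPM with DMSO. Agtr2, an angiotensin receptor, had 0 and 0 reads with APH and 5 and 4 reads with DMSO in the knock-out line, and its call was lost without any 1 of the 8 libraries and with the replicate block. Of the 379 long genes, the difference was called lower in wtATMIN for 22 and higher for 1, and 106 were called lower in the knock-out line itself. Of the 182 with at least 5 CPM in wtATMIN at 24 h, 90 were called lower in the knock-out line (49.5%) and 8 higher. At that level, 23.1% of genes under 30 kb were called lower there.

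**Figure D5:**
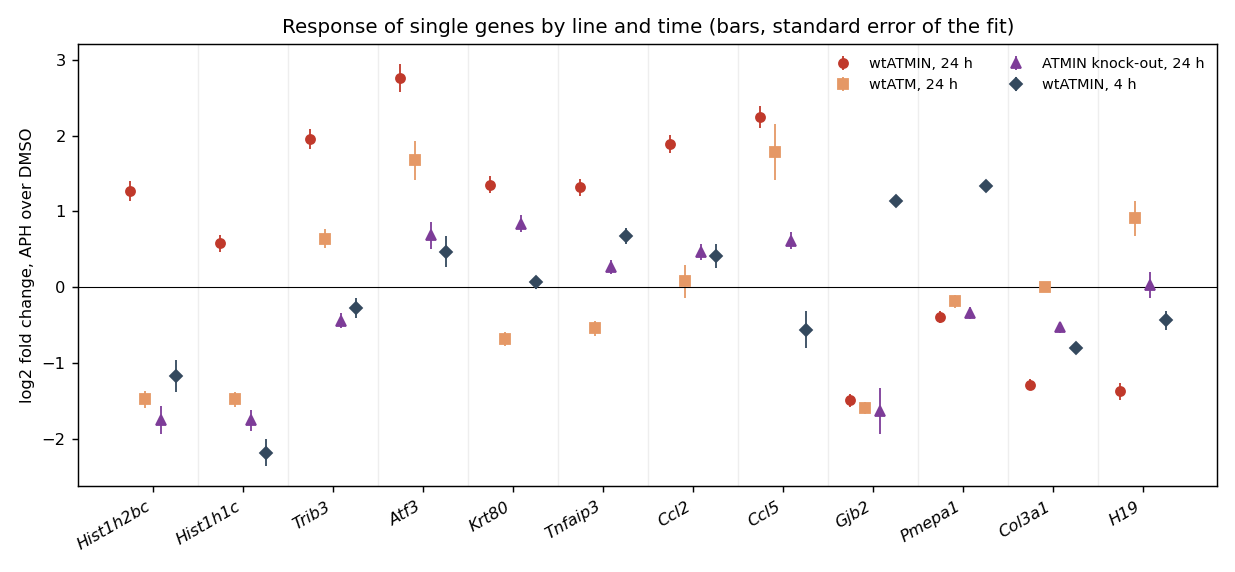
Log2 fold change of APH over DMSO with its standard error (vertical axis) for 12 genes, in wtATMIN at 24 h, wtATM at 24 h, the ATMIN knock-out line at 24 h and wtATMIN at 4 h; each is against its own DMSO samples. Hist1h2bc and Hist1h1c are above 0 only in wtATMIN at 24 h, Gjb2 and Pmepa1 are above 0 only at 4 h, and Trib3 is above 0 in both wild-type lines at 24 h and below 0 in the ATMIN knock-out line.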

How the data were processed

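Total RNA was sequenced after a TruSeq RNA v2 preparation, per the labels' protocols. Raw counts per gene were deposited by the authors, after alignment to mm10 with TopHat2 2.0.13 and Bowtie2 2.4.0, per the submitters' processing notes; the counter, its strand setting and the annotation are not given in the sources used here. The authors also deposited log2 fold changes and p-values of each comparison, made with DESeq2 1.6.3 per the same notes, from which 1 comparison is quoted. Another 120 columns of single-sample values were not used. Rows of 39017 genes were read; symbols came from the authors' table for 15202 and from GENCODE M21 for 22609, and positions from GENCODE M21.

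Here, genes kept by filterByExpr (18484) were scaled by TMM and fitted over all 32 samples and 16 groups with edgeR 4.0.16 in R 4.3.3 (robust quasi-likelihood test, Benjamini-Hochberg adjusted p under 0.05). CPM are TMM-scaled, and a standard error is the absolute log2 fold change over the square root of F. Differences between responses were contrasts of the same fit. Tables were made with Python 3.11.15, numpy 2.4.6 and pandas 2.3.3. On simulated counts of this comparison, 80% of 100 genes changed by 0.5 on the log2 scale and 100% of 100 changed by 1 were called, with 5 unchanged genes called. The changed genes were drawn only from those above 5 CPM. All genes were given the same biological coefficient of variation, 0.064. These shares are therefore not the power of the test for genes of lower counts or larger spread. Libraries held 9321329 to 21020662 reads, which limits precision for genes under 1 CPM, of which 5.87% were called, against 44.7% of those over 100 CPM. The gene lists and genes were chosen with earlier results of these data known. Named genes are those with the 12 largest and 12 smallest changes among called genes with at least 5 CPM and no overlap, 8 genes of the ATM and p53 pathway, up to 6 members with the smallest p per list, and the 6 largest and 6 smallest of each difference; others named for their role were chosen after their values were seen, and some genes that meet the rule are not reported here. Alternatives were other scalings, no filter, DESeq2 1.42.0, a replicate block, the compared groups alone, and leaving out each library; the limit of 5 CPM on long genes was added after seeing the data.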

Additional observations from a re-analysis of the deposited data

Results flagged for a closer look

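Each result here is a difference between the 24 h response of wtATMIN and another response that passed edgeR's quasi-likelihood test after Benjamini-Hochberg adjustment. The number of genes concerned was 3430 against 4 h, 2605 against wtATM and 450 against the ATMIN knock-out line.

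Against 4 h, the difference on the log2 scale was 4.18 for Atg9b, 3.24 for Trp53inp1 and 3.22 for Gbp3, which rose late. It was -2.63 for Gjb2, -1.86 for Sorcs2 and -1.72 for Pmepa1, of which Gjb2 and Pmepa1 were lower with APH at 24 h and higher with APH at 4 h.

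Against wtATM, the difference was 5.46 for Pmaip1, 2.74 for Hist1h2bc and 2.05 for Hist1h1c, and -4.13 for Fndc1, -3.68 for Plekhg1 and -3.53 for Prkar1b. Pmaip1, Fndc1 and Prkar1b had at most 10 reads in any wtATM library at 24 h, and each call was lost without the second wtATM DMSO library.

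Against the ATMIN knock-out line, the difference was 5.72 for Agtr2, 3.02 for Hist1h2bc and 2.39 for Trib3, and -2.65 for Casz1, -2.14 for Lgr6 and -1.66 for Fras1. Agtr2 had at most 5 reads in any library of that line at 24 h, and Casz1, Lgr6 and Fras1 at most 24. The calls of Agtr2 and Lgr6 were lost when any 1 of the 8 libraries was left out, that of Fras1 in 6 of these 8 fits and that of Casz1 in 1.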

How the results depend on the processing

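No alternative reversed any of the 201 gene values refitted, but some splits of counts turned. Many of these values were picked for a large change or a small p in these data. Reversals over all genes were not counted. With library size alone the split at 24 h was 3438 higher and 1900 lower, replication genes 16 and 12 and contractile genes 7 and 5, and the contractile and heat shock medians changed sign. Of 201 gene values refitted 2151 times, 2065 fits kept the direction and the side of the threshold, 74 lost the call and 12 gained one. Against 4 h, library size alone left 1080 genes lower. Against the ATMIN knock-out line, the compared groups alone gave 1514 genes, 709 higher and 805 lower, and no filter 249 and 280. In wtATMIN at 24 h, the checkpoint list had 10 members higher and 4 lower in the compared groups alone, and with library size alone 5 contractile, 3 NRF2 and 7 glycolysis genes were lower. The causes were not tested.

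Without 1 library, 1506 to 1654 genes were higher at 24 h; against wtATM 699 to 1046 were higher; and against the ATMIN knock-out line 219 to 319 differed, 137 to 171 higher and 75 to 148 lower. Of the lists, 10 to 16 recombination and Fanconi, 3 to 4 checkpoint, 6 to 8 immediate-early and 4 to 8 histone genes were higher, and 2 to 4 CDK inhibitor, 5 to 6 contractile and 8 to 10 glycolysis genes were lower. These fits have 1 library fewer, and where a group keeps 1 library it is assumed to vary like the others.

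With the replicate number as a block, 5186, 3267, 2449 and 387 genes were called, for APH at 24 h and its difference from 4 h, wtATM and the ATMIN knock-out line. The labels do not pair the samples, and same-numbered APH and DMSO samples at 24 h deviated with a correlation of 0.034. For the wtATMIN DMSO samples at 24 h and 4 h this correlation was -0.384. The other pairs of compared groups looked at lay between -0.011 and 0.077. Low counts limit the histone list and the differences of genes near 0 reads.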
